A study of Drosophila melanogaster with 3 samples.

Results

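Clustered summits were binding positions of the tagged protein Dad-GFP that had at least 2 other such positions within 5 kb (5000 bp) on the same chromosome arm. They were chosen by the measured positions and signal of the authors' optimal list of 3392 peaks on genome build dm6. Summits closer together than 410 bp were first merged into the one of highest signal, which removed 139 peaks and left 3253 merged summits. Of these, 451 (13.9%) met the rule, and joining members within 5 kb of one another gave 164 clusters. The other 2802 merged summits did not meet it, although 134 of them lay within 5 kb of a member; these are called flanking summits below. Density of peaks was thus the criterion, and the number of clusters is given as a description with no test.

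The samples were whole Drosophila melanogaster embryos of 0 to 24 h, sexes pooled, from a transgenic line with Dad carrying GFP at its C terminus. Chromatin was sonicated to 200 to 800 bp and immunoprecipitated with an antibody to GFP, in 3 biological replicates that form 1 group. All of the embryos carried the transgene, whose promoter the labels do not name, and no untagged embryos or control library were analysed here. Read depth is unknown, because the files hold peak regions with a signal value and no read counts. Signal from whole embryos of mixed age does not tell which cells or stages carried the protein.

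Dad is the inhibitory Smad of the fly. In the BMP pathway, the ligand Dpp binds its receptors, which phosphorylate the Smad Mad; Mad enters the nucleus with Medea and acts on target genes together with partners such as the zinc-finger protein Schnurri (shn). Dad is itself switched on by this pathway and holds it back, which makes it a feedback inhibitor. Developmental genes of the fly often carry several regulatory elements in their introns and flanks, whereas housekeeping genes often rely on elements at the promoter itself.

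The strongest clustered summits of 7 clusters described below are shown first. With them is a clustered summit whose printed window holds the letters of the DNA replication-related element (DRE), which need not be the strongest such summit. The results below turn on these loci and on that motif. Each is 121 bp centred on the summit, read from the plus strand of Release 6 (dm6), 5′ to 3′. Capitals mark matches, on either strand, to any of the 14 motifs searched, which are spelled out further below. The Raf sequence is chrX:2297670-2297790 (intron), the ush sequence chr2L:480999-481119 (intron), the CHES-1-like sequence chrX:7698376-7698496 (intron) and the ph-p sequence chrX:2137276-2137396 (intron). The Trl sequence is chr3L:14759429-14759549 (intron), the Dad sequence chr3R:17060370-17060490 (intron), the lncRNA:CR43334 sequence chr3L:634828-634948 (exon of a long noncoding RNA) and the RpS25 sequence chr3R:11216274-11216394 (intergenic, with the summit 47 bp from the start site).
Raf: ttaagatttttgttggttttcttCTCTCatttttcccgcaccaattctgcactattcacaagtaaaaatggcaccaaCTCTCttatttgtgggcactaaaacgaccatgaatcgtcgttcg
ush: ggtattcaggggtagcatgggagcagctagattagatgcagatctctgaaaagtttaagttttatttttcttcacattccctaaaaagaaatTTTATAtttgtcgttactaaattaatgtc
CHES-1-like: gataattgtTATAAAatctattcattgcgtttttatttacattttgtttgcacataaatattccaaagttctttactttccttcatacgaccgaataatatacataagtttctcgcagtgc
ph-p: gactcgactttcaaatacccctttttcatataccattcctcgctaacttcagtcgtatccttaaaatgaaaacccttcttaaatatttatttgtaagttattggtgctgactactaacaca
Trl: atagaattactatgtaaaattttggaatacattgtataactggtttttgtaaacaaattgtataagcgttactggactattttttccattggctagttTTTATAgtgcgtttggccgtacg
Dad: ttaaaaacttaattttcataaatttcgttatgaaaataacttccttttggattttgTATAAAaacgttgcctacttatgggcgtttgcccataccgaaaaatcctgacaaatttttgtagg
lncRNA:CR43334: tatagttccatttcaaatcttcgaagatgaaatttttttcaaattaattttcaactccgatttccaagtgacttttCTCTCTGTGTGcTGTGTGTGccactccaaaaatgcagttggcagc
RpS25: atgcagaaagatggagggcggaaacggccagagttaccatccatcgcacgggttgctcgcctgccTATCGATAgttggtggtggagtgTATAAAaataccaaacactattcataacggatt
The windows at ush, CHES-1-like, Trl and Dad held the letters TATAAA and no other motif of the set. The Raf window held GAGAG at 2 places, the lncRNA:CR43334 window held GAGAG and CACACA, and the ph-p window held none of the 14. GC content in the 6 printed intronic windows ran from 28.1% at CHES-1-like to 38.8% at Raf. The RpS25 window, chosen for TATCGATA, also held TATAAA and had a GC content of 47.9%, and the other 7 printed windows did not hold TATCGATA. A window read in the same way but not printed, in an intron of Hr4, held GNCGNC and TGGCG and had a GC content of 43.0%. In 201 bp windows of the optimal list, GNCGNC was in 26.4% of clustered and 28.4% of other summits. TGGCG was in 25.7% and 26.9%. For the letters found in the printed windows, TATAAA was in 25.72% of clustered and 27.91% of other summits. GAGAG was in 23.73% and 24.55%, and CACACA in 17.96% and 15.63%.

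Most clusters were small and tightly spaced. There were 69 clusters with 3 members, 24 with 4, 10 with 5, 1 with 6, 3 with 7 and 1 with 8. A further 49 clusters had 1 member and 7 had 2, because their other summits did not themselves have enough neighbours. In the 115 clusters with 2 or more members, the distance from first to last member was 1473 bp at the shortest, 4497 bp at the median and 14040 bp at the longest. The 287 gaps between successive members had a median of 1751 bp (quartiles 1082 and 2626 bp), and the narrowest was 524 bp. The lower end is set by the merging distance and the upper end by the 5 kb limit.

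**Figure D1:**
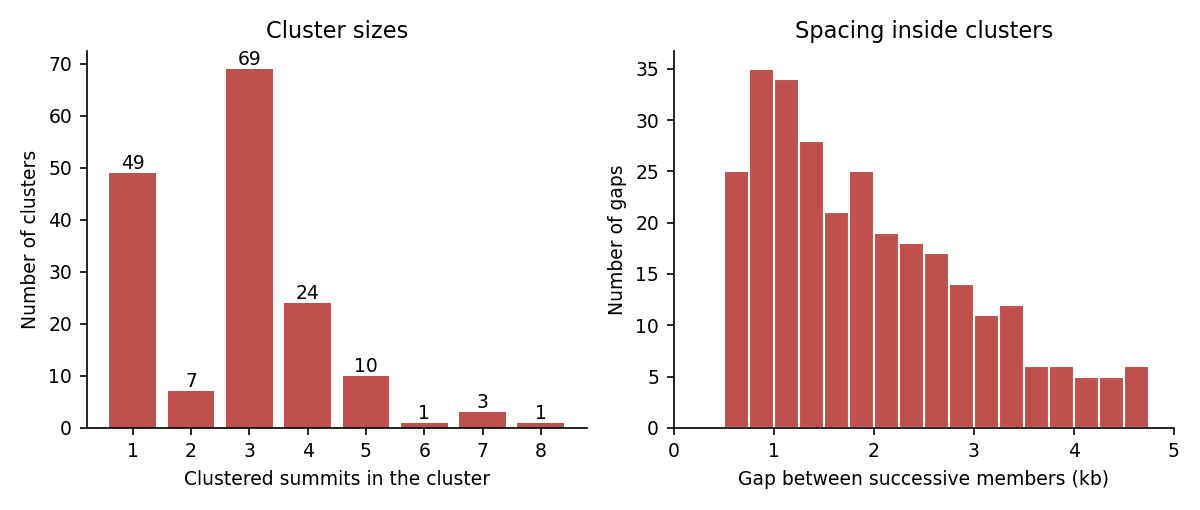
Left, number of clusters by the number of clustered summits they hold; right, distances in kb between successive members of a cluster, in 0.25 kb bins. Clusters of 3 members were the most frequent (69 of 164), and the gaps had a median of 1751 bp.

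The cluster with the most members lay at Raf, the MAP kinase kinase kinase that acts below receptor tyrosine kinases such as the EGF receptor. Its 8 summits spanned 12817 bp (chrX:2293685-2306502) and 7 of them were inside Raf, 6 in introns. In order along the chromosome their signals, the authors' value for each peak, were 233, 244, 589.5, 131, 313.5, 179, 329.8 and 91.1. As multiples of the median optimal peak in the same replicate (called relative signal), the strongest Raf summit reached 4.91, 4.21 and 4.44 in replicates 1, 2 and 3. The weakest Raf summit had relative signals of 0.662, 0.663 and 0.838 and stood below the median in every replicate. Of the 8 Raf summits, 7 fell within the 3392 strongest regions of all 3 replicates.

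The cluster at ush had the highest summed signal, 2941 over 7 summits (chr2L:479054-490765). ush encodes a Friend-of-GATA cofactor of the GATA factor Pannier and is a target of Dpp signalling in the dorsal embryo, and the zinc-finger gene cbt is nested within it. Their signals in order were 113, 529, 1745, 93.2, 218, 107 and 136, so 1 summit carried more than the other 6 together. That summit, 1371 bp from the nearest start site (of cbt), had relative signals of 13.3, 12.8 and 14.1 in replicates 1, 2 and 3. Its neighbour 954 bp away had 3.98, 3.73 and 4.61, and the remaining 5 stayed at 1.70 or below in every replicate. The ush summit at position 481939 overlapped no region of replicate 1, and its relative signals in replicates 2 and 3 were 0.728 and 1.25. The nearest coding start site was that of cbt for the first 4 summits and that of ush for the last 3.

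Dad, the gene for the immunoprecipitated protein's own endogenous form, held a cluster of 4 summits (chr3R:17052978-17060430). Their signals were 81.4, 127, 139.5 and 153, and the median over all other, unclustered summits was 121.5. The second lay 57 bp from the Dad start site, and its relative signals were 1.14, 1.31 and 0.804 in replicates 1, 2 and 3. The strongest lay in an intron, 5533 bp from the nearest annotated Dad start site, at 1.14, 0.907 and 1.44. The first, 1029 bp upstream, was below the median in all 3 replicates (0.533, 0.478 and 0.796) and ranked among the strongest regions of replicate 3 alone. Signal from the endogenous gene and from any copy of its sequence in the transgene cannot be told apart.

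Clusters at other genes of signalling pathways ranged from 1 to 7 summits. shn held 3 summits within 2256 bp of one another, all in an intron, with signals of 200.5, 137 and 151 and with each of the 3 present among the strongest regions of all 3 replicates. msn, a Ste20-family kinase that acts upstream of JNK, had 7 summits of 103, 152, 208, 136, 86.3, 173 and 83.2; the last pair lay outside the gene, at the start sites of RpL8 and dos. puc, the phosphatase that restrains JNK, hosted 3 summits with a summed signal of 499.8, all 3 in the strongest regions of every replicate. edl, a small SAM-domain regulator of Ets factors, hosted a cluster of 3, and 3 summits, 2 of them intergenic and 1 in an exon of lncRNA:CR43751, lay nearest to aop, which encodes the Ets repressor Yan; their summed signals were 442 and 422. The insulin receptor gene InR held a single member with signal 127.

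**Figure D2:**
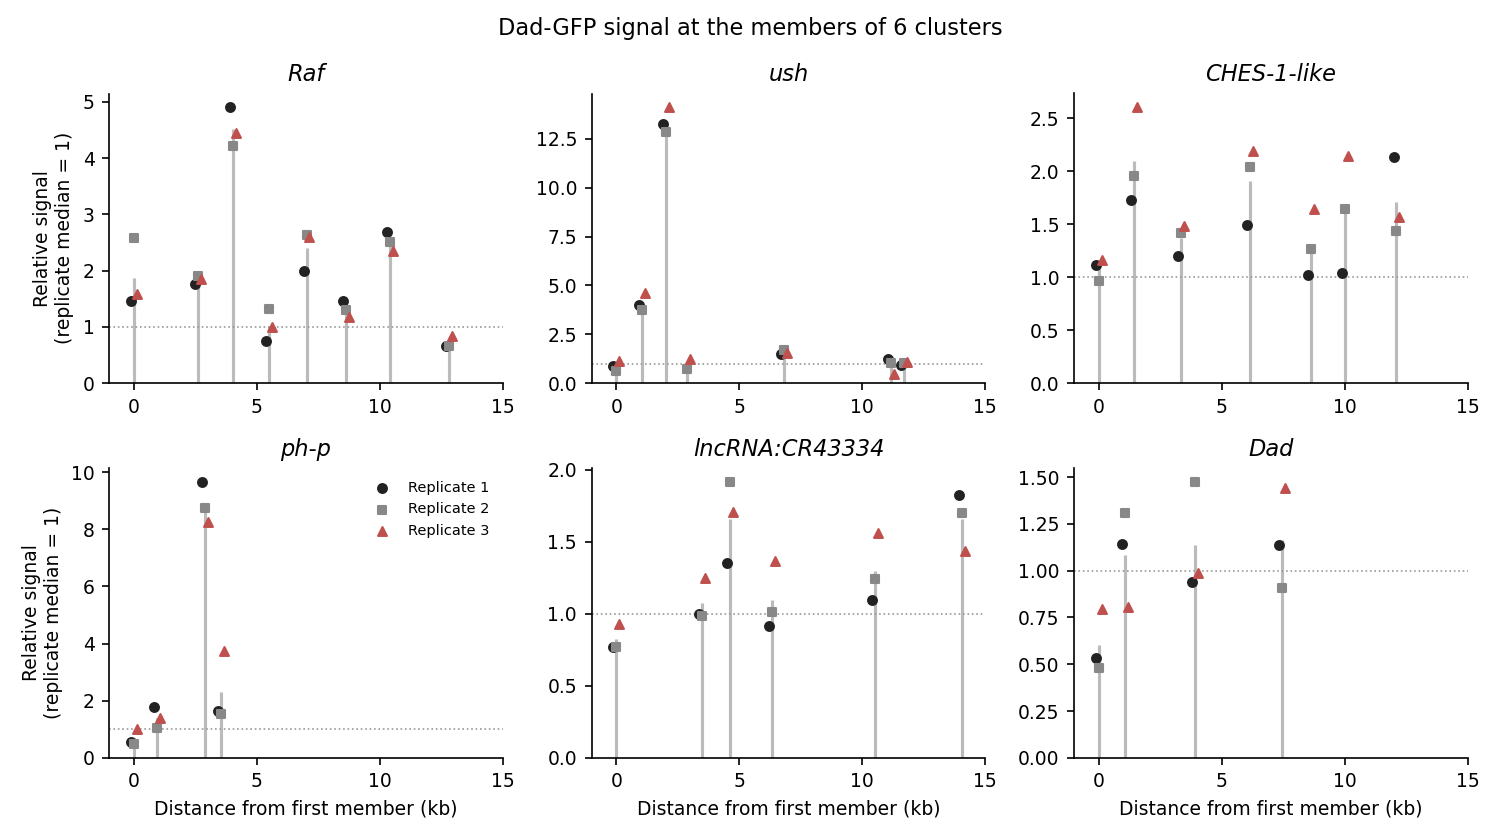
Relative signal (multiple of the median optimal peak in the same replicate, linear axis starting at 0 with its own scale in each panel) of every member of 6 clusters against distance in kb from the first member; symbols are replicates, grey stems their mean, the dotted line a value of 1. A single summit dominates ush (12.8 to 14.1) and ph-p (8.27 to 9.66), whereas the 7 summits of CHES-1-like lie between 0.970 and 2.60.

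Clusters at chromatin and transcription regulators differed in how evenly signal was spread. ph-p encodes a subunit of the Polycomb repressive complex, and its 4 summits had signals of 98.9, 183, 1125 and 313. The strongest had relative signals of 9.66, 8.73 and 8.27 in replicates 1, 2 and 3, while the last summit had 1.64, 1.54 and 3.73 and was highest in replicate 3. At Trl, which encodes GAGA factor, the 5 signals were 102, 216, 645, 112 and 118, and the strongest summit had relative signals of 4.04, 3.65 and 6.69. The last of the Trl summits lay 259 bp from the start site of Mgat4a. trx, a histone H3 lysine methyltransferase gene of the Trithorax group, had a cluster of 3 that only just met the rule. Of its members, 1 lay inside trx and 2 were intergenic. CHES-1-like, a forkhead-type transcription factor gene, held 7 summits with signals between 136.5 and 278, and every one was among the strongest regions of all 3 replicates. Across the 108 clusters with 3 or more members, 20 had every member among the strongest regions of all 3 replicates.

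Nuclear receptor genes hosted 2 largely intronic clusters, of which that at Hr4 had a summed signal of 979 and that at ftz-f1 one of 497.5. Hr4, a receptor of the ecdysone response, hosted 5 summits with signals of 134, 118, 93.2, 269 and 365. The first lay outside the gene, at the start site of CG3587, and the strongest, 9964 bp from the Hr4 start site, had relative signals of 3.03, 2.69 and 2.54. ftz-f1, the receptor that makes tissues competent to respond to ecdysone, held 5 intronic summits with signals of 83.9, 98.9, 111, 112 and 92.4, the nearest of them 9716 bp from a start site. None of the 5 ftz-f1 summits was among the strongest regions of all 3 replicates, against 4 of the 5 at Hr4.

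Several clusters lay over long noncoding RNAs and not over coding genes. The 6 summits of the cluster chr3L:630248-644288 had signals of 99.7, 146, 216, 143, 165 and 210, and all 6 were among the strongest regions of all 3 replicates. Of the 6, 5 lay in exons of lncRNA:CR43334, the transcript that covers the hairpin of the growth-promoting microRNA bantam (mir-ban). That hairpin, chr3L:642208-642288, was 1449 bp above the fifth summit and 2000 bp below the sixth. On the X chromosome, 4 summits at lncRNA:Vinr and lncRNA:CR44619 had signals of 628, 639, 193 and 97.4. The first had relative signals of 4.85, 5.07 and 4.82 and the second of 5.06, 4.53 and 5.19, a near tie in which the replicates do not share an order. Of 262 annotated microRNA genes, 4 lay wholly between the first and last member of a cluster, in 3 clusters: mir-ban, mir-8, and the pair mir-281-1 and mir-281-2. Another, mir-4962, held a member of a cluster at Tlk but did not lie wholly between that cluster's outer members. How many genes of all kinds lay between members was not counted. The microRNA genes were looked up after the values were seen.

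The remaining clusters of high signal or many members were at genes of varied function. Rtnl1, which encodes an ER-shaping reticulon, had 5 summits of 624, 116, 127, 336 and 93.2, all within 500 bp of one of its start sites. larp, which encodes a La-related RNA-binding protein, had 3 intronic summits with a summed signal of 1063, of which the strongest reached 874. It was also the host of a second cluster of 3 summits, with a summed signal of 356.6. All of these lay within 500 bp of a TSS, and 1 was inside larp. Clusters at CG44838 (3 summits), CG14434 (5 summits) and COX7AL2 (5 summits) had summed signals of 1089, 979.5 and 1031. The named gene held 1 of the 3 members at CG44838, all 5 at CG14434 and 2 of the 5 at COX7AL2. The strongest member at CG44838, with signal 738.5, lay outside that gene, 88 bp from the start site of CG3552. At COX7AL2 the strongest, with signal 426.6, was intergenic and nearest to CG31668. A cluster of 3 summits near Sesn, the sestrin gene, had a summed signal of 1150, with 1 summit in an exon of asRNA:CR45326 and 2 intergenic.

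Members of a cluster differed in signal, and all 3 replicates placed the same member highest in 52 of 103 clusters. The strongest member of a cluster exceeded the second by a median factor of 1.402 and by at most 8.38. This factor cannot fall below 1, since members were sorted by signal, and no other grouping of summits was compared. Of 103 clusters with at least 3 members, each with a region in every replicate, the 3 replicates put the same member highest in 52 (50.5%). They put 2 different members highest in 36 clusters, where 2 of the 3 replicates thus agreed, and 3 different members in 15. This comparison was added after the values were seen.

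Clustered summits were less often at transcription start sites (TSSs) and more often in introns than other summits. Within 500 bp of a TSS lay 226 of 451 clustered summits (50.1%, Wilson 95% interval 45.5 to 54.7) and 1748 of 2802 other summits (62.4%, 60.6 to 64.2), and 60.7% of all merged summits did so. The intervals cover counting error only, and members of 1 cluster are not independent. The rule was then applied to each replicate's own 3392 strongest regions, whose annotation the rule did not use. The clustered share at a TSS was 53.8%, 50.6% and 44.3% in replicates 1, 2 and 3, against 62.4%, 63.0% and 61.0% of the other summits. Clustered summits were lower in every replicate, and the groups of 3 values did not overlap. The difference, clustered minus other, was -12.6 ± 4.04 percentage points (SD, n = 3; 3 of 3 replicates), with an exact two-sided sign-flip permutation p of 0.25. That is the smallest p that 3 replicates allow, and after Benjamini-Hochberg adjustment over 17 tests it was 0.708, so the difference exceeded the spread between replicates but could not pass a threshold of 0.05. It shrank to -6.12 points with the strongest summit of each cluster alone, -7.82 without merging and -7.20 with a distance of 10 kb, each still negative. The replicates' lists come from the libraries behind the optimal list and are not independent of it.

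Introns held 216 clustered summits (47.9%) and 1078 other summits (38.5%), against 39.8% of all merged summits. In the replicates' own lists the intronic share was 44.4%, 48.2% and 49.8% for clustered summits, against 36.8%, 37.6% and 39.8% for other summits. All 3 clustered values were above all 3 other values, by 9.38 ± 1.57 percentage points (SD, n = 3; exact permutation p = 0.25, adjusted 0.708), and by 16.1 points with a distance of 2.5 kb. Intergenic positions made up 33.5% of clustered and 43.6% of other summits. Exons outside annotated coding sequence and UTRs, such as those of noncoding transcripts, made up 5.77% of clustered summits, 26 in number, and 2.21% of other summits. Median distance from the nearest TSS was 485 bp in clustered and 188 bp in other summits.

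**Figure D3:**
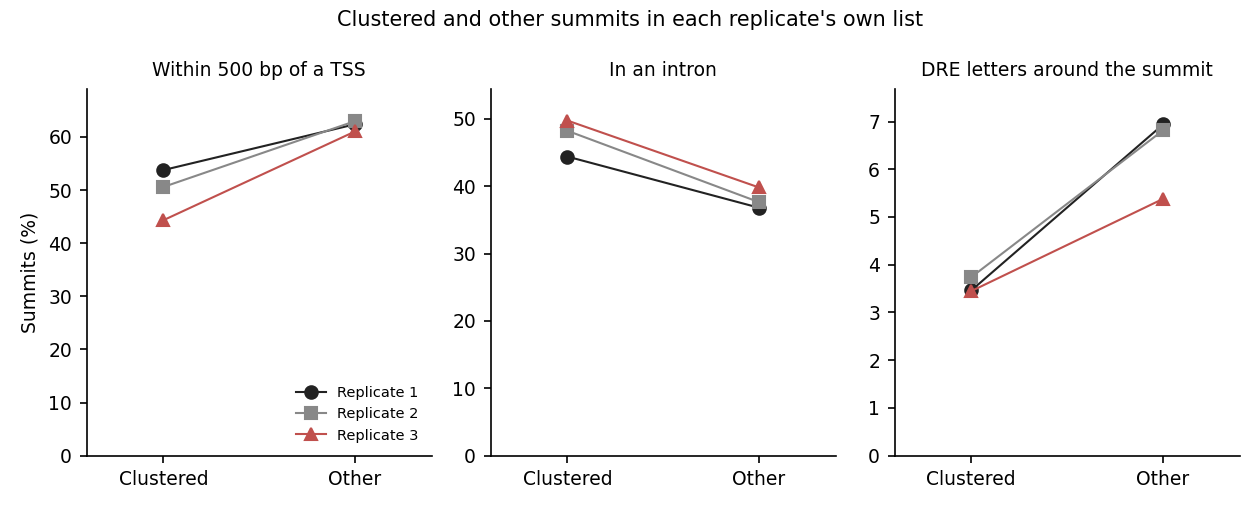
Percentage of clustered (left) and other (right) summits within 500 bp of a TSS, in an intron, and with the DRE letters in the 201 bp around the summit, for the 3 replicates' own lists (symbols and lines; each axis starts at 0 and has its own scale). In every replicate the clustered share is lower at TSSs and for the DRE letters and higher in introns.

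The shift away from TSSs was steepest among the most crowded summits. Summits with 0, 1, 2 and 3 or more others within 5 kb numbered 1862, 940, 318 and 133 in the optimal list. Their share at a TSS was 63.5%, 60.2%, 56.0% and 36.1%. In the replicates' own lists the same shares averaged 63.5 ± 1.25%, 59.4 ± 0.671%, 53.9 ± 5.81% and 37.4 ± 0.538% (SD, n = 3). The intronic share in those lists was 35.8 ± 2.15%, 42.7 ± 0.624%, 44.5 ± 3.96% and 56.0 ± 3.43%. Neighbouring classes with 1 and 2 other summits overlapped in mean ± SD for both measures. Their single replicate values did not overlap at TSSs, at 58.82 to 60.15% with 1 other summit and 47.37 to 58.47% with 2. The class with 3 or more stood apart from the rest for both measures. The optimal median signal in the 4 classes was 121, 123, 126 and 143.

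Of the 14 short motifs searched within 100 bp of the summit (201 bp, both strands), TATCGATA, the palindromic core of the DRE bound by DREF at housekeeping promoters, had the largest mean difference between clustered and other summits. Letters bound by the Smads Mad and Medea were searched as GNCGNC and as the palindrome GTCTAGAC, and the core of the Dpp-pathway repressor Brinker as TGGCG. Promoter elements searched were TATAAA for the TATA box and GGTCACAC for the factor M1BP. Also searched were GAGAG, which the Trl protein binds, the dinucleotide repeat CACACA, and CAGGTA, which the pioneer factor Zelda binds. TGANTCA stands for the Jun and Fos dimer, and GATAAG for Pannier and related factors. AGGTCA stands for nuclear receptors, CAGCTG for basic helix-loop-helix proteins, and CCGGAA for Ets factors. Matches can overlap, as GNCGNC and TGGCG can share bases. TATCGATA was in 3.10% of clustered and 7.21% of other optimal summits, and in 6.45% of windows of the same length at the 19253 coding TSSs. In replicates 1, 2 and 3 it was in 3.46%, 3.74% and 3.45% of clustered summits, against 6.94%, 6.82% and 5.38% of other summits. Every clustered value lay below every other value, by 2.83 ± 0.801 percentage points on average (SD, n = 3; exact permutation p = 0.25, adjusted 0.708). Fewer clustered summits are at TSSs, so the share was also taken at TSSs alone, where it was 13 of 226 clustered (5.75%) and 197 of 1748 other summits (11.3%). There the replicate difference was -3.06 ± 1.55 percentage points (clustered minus other, exact permutation p = 0.25, not adjusted). Away from TSSs, 1 of 225 clustered and 5 of 1054 other summits held it.

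With 100 bp on either side, the other 13 motifs differed less. With 250 bp, however, CACACA was higher in clustered summits by 5.66 points and GAGAG by 3.98, both more than the TATCGATA difference of -3.74 at that width. GATAAG was lower in clustered summits of all 3 replicates by 1.72 ± 1.60 points and TATAAA by 1.402 ± 0.384 points (exact permutation p = 0.25 for each). The GATAAG difference was -0.824 points without replicate 3 and -0.123 with 250 bp on either side. GNCGNC, letters of Mad binding sites, was in 29.7 ± 5.81% of clustered and 30.2 ± 2.85% of other summits, and in 38.6% of coding TSS windows (SD, n = 3). AGGTCA was in 3.97 ± 0.904% of clustered and 3.57 ± 0.133% of other summits, against 3.26% of TSS windows. GTCTAGAC was in 0 of the 451 clustered summits of the optimal list, which allows a share of up to 0.665% (3 counts of 451), and in 0.0714% of other summits. GC content around the summit was 39.6 ± 1.22% at clustered and 39.1 ± 1.44% at other summits of the replicates, and the difference of 0.412 ± 0.436 points was positive in 2 of 3 replicates (exact permutation p = 0.5, adjusted 0.773).

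Clusters fell into 3 kinds by whether their summits, flanking ones included, were at TSSs. In 35 clusters (21.3%) every summit was within 500 bp of a TSS, in 109 (66.5%) some were, and in 20 (12.2%) none was. Clusters with every summit at a TSS had a median of 4 genes with a start site there and a median host length of 7270 bp (12 of the 35 had no host). TATCGATA was in 7.23% of their members and GGTCACAC in 9.64%, while AGGTCA and TGANTCA were in 0 of their 83 members, which allows up to 3.61%. Clusters with no summit at a TSS had a median host length of 50703 bp, although 7 of the 20 had no host. AGGTCA was in 11.1% and TATCGATA in 0 of their 54 members, which allows up to 5.56%. shn, ftz-f1 and the chinmo and aop neighbourhoods were in this last kind. Over all clustered summits, TATCGATA was in 3.10%, GGTCACAC in 3.55%, AGGTCA in 5.10% and TGANTCA in 2.44%. In mixed clusters AGGTCA was in 5.41% of members and each of the other 3 in 2.55%. Further motifs also differed between the kinds with every and with no summit at a TSS. CAGCTG was in 15.7% and 3.70% of their members, and CCGGAA in 9.64% and 1.85%. The kinds were defined after earlier results of these data were known, and their motif shares rest on 83 and 54 members, so they are given with no test.

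A cluster's host gene was the coding gene whose span held more of its members than any other coding gene did (the longer gene in a tie), however few that was. By that definition 126 clusters had a host, 123 different genes in all, and 38 had none. The host held more than 50% of the members in 84 of the 126. All members lay inside the host in 53 clusters, and in 21 of the 108 clusters with 3 or more members. Hosts were long, with a median length of 13742 bp against 2166 bp over all 13945 coding genes. Genes that held a clustered summit, 166 in number, had a median length of 10680 bp, and the 1199 genes that held other summits alone had 9093 bp. Of coding genes under 2 kb, 6 of 6517 (0.0921%) hosted a cluster, and of those from 2 to 10 kb, 41 of 5451 (0.752%). Of genes from 10 to 30 kb, 49 of 1314 did so (3.73%), and of those of 30 kb or more, 27 of 663 (4.07%). A long gene has more room for several summits, and no share here is adjusted for length.

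**Figure D4:**
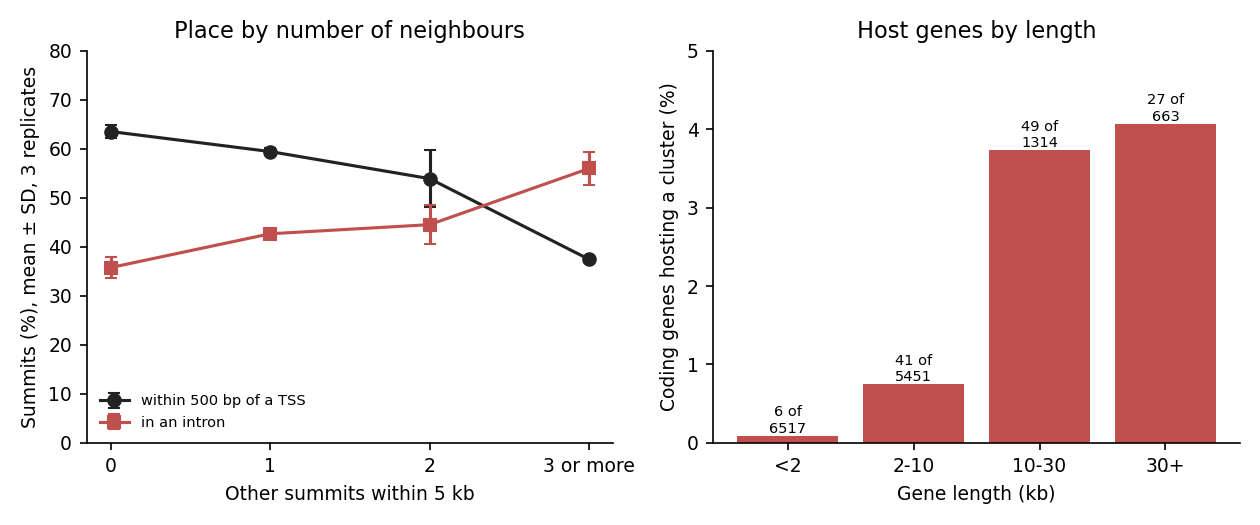
Left, share of summits within 500 bp of a TSS (black circles) or in an intron (red squares) by the number of other summits within 5 kb, mean ± SD over the 3 replicates' own lists; right, percentage of coding genes hosting a cluster by gene length, with counts above the bars. The share at a TSS is 37.4% with 3 or more other summits and 63.5% with none, and 4.07% of genes of 30 kb or more host a cluster.

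Of all coding genes, 0.882% hosted a cluster, and counts in the gene lists are read against that figure and against gene length. Among 25 BMP pathway genes, Dad and shn were hosts (8.0%), and among 29 Dpp targets, ush and Dad (6.90%), with Dad in both lists. The median lengths in these lists were 11172 and 13896 bp, that is, in the range of length where 3.73% of all coding genes were hosts. The EGFR and Ets list had Raf and edl of 21 genes, and the ecdysone and nuclear receptor list had Hr4 and ftz-f1 of 24. The JNK, AP-1 and stress list had CrebB, the fly CREB factor, and puc of 15, and the JAK-STAT list had ken, a transcriptional repressor, of 9. The Polycomb and Trithorax list had ph-p, Trl and trx of 30. The list of axon guidance and adhesion genes had the Slit receptor gene robo2 and kirre, which acts in muscle fusion, of 23 (8.70%). Its median length was 40368 bp, in the range where 4.07% of all coding genes were hosts. robo2 held 1 of the 4 members of its cluster, and kirre held a single member with signal 89.9.

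No gene of the Notch list (20 genes), the Wg and Hh list (24), the homeotic and segmentation list (30) or the chemoreceptor list (119) hosted a cluster or held a clustered summit. At a share of 0.882% over all coding genes, 0 hosts in lists of this size is near the background. The nervous system fate list (22) had no host, although elav held 1 clustered summit, and the cell cycle list (19) had none, although 1 member lay near Cdk1. The BTB and zinc-finger list had mbl of 23 genes as host, with a single member, while chinmo, which controls temporal identity of neurons, was the nearest coding gene to 3 of the 4 members of an intergenic cluster with a summed signal of 966. The Hippo and growth list had InR of 21. Of 82 cytoplasmic ribosomal protein genes, RpL12 was a host (1.22%), and a cluster of 3 lay near RpL34b. Core metabolism and cytoskeleton genes had Pgk, a glycolytic kinase, chic, which encodes profilin, and Hsp83 of 22 (13.6%). That was the highest share of the 18 lists, almost tied with 13.3% (2 of 15) in the JNK, AP-1 and stress list. Shares that rest on 2 or 3 genes do not rank these lists. The summed signals at these 3 hosts were 840 at Pgk over 5 summits, 279 at chic over 3 and 135 at Hsp83, which held a single member. Of the 3 summits at chic, 1 lay inside the gene.

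The share of summits that were clustered is given by chromosome arm, with no test. In the optimal list it was 18.4% on X, 17.2% on 2L, 12.9% on 3L, 12.5% on 2R and 9.82% on 3R, and 0 of the 11 summits on chromosome 4 were clustered, which allows up to 27.3%. In the replicates' own lists it was 18.2 ± 0.620% on X, 16.2 ± 1.85% on 2L, 15.1 ± 2.88% on 2R, 13.3 ± 1.85% on 3L and 11.4 ± 2.10% on 3R (SD, n = 3). Of the 5 large arms, X and 3R stood at either end in both. Neighbouring arms in this order overlapped within their spread in the replicates, X with 2L and 3R with 3L included. X and 2L each held 36 of the 164 clusters. On chromosome 4, 1 of 13 summits was clustered in the list of replicate 1, and 0 of 12 and 0 of 9 in those of replicates 2 and 3.

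Clustered summits had slightly higher signal than other summits. Clustered summits had a median signal of 131 (range 80.8 to 1745) and other summits one of 121.5 (range 80.7 to 1827). A signal of at least 300 was reached by 51 clustered summits (11.3%) and by 224 other summits (7.99%). Relative to each replicate's median, the median clustered summit stood at 1.03, 1.06 and 1.03 in replicates 1, 2 and 3, and the median other summit at 0.979, 0.972 and 0.976. Merging kept the highest of close summits and so bears on both groups, and width did not separate them, with a median of 410 bp in each. The median coefficient of variation of a summit between replicates was 21.7% for clustered and 23.2% for other summits. Signal entered the rule through the optimal list and the merging, and these values are given with no test.

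Replicates recovered clustered summits about as often as other summits. A replicate's 3392 strongest regions contained 80.04%, 79.8% and 84.3% of clustered summits in replicates 1, 2 and 3 (mean 81.4 ± 2.5%, SD, n = 3), and 80.2%, 75.5% and 81.9% of other summits (79.2 ± 3.34%), so the groups overlapped. All 3 replicates contained 264 clustered (58.5%) and 1510 other summits (53.9%), against 54.5% of all merged summits. With the rule applied to them alone, the replicates gave 491, 508 and 406 clustered summits in 184, 190 and 152 clusters. A cluster of a replicate lay over, or within 410 bp of, 117, 116 and 118 of the 164 optimal clusters in replicates 1, 2 and 3 (71.3 ± 0.610%).

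At the limit of the rule, the summits whose second neighbour lay just inside 5 kb were nearest to red (4971 bp, signal 98.7), trx (4971 bp, 305), RpLP1 (4977 bp, 135) and Orc1 (4996 bp, 123). Those just outside were nearest to Diap1 (5009 bp, signal 81.0), CG8206 (5026 bp, 97.8), Prp16 (5035 bp, 98.7) and CG7560 (5040 bp, 99.1).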

How the data were processed

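The authors' narrowPeak files hold 30000 regions for each replicate and for the pooled alignments, made against a control alignment per the labels' file listings. From these came the optimal list, by irreproducible discovery rate (IDR). The sources used here do not give the caller, aligner or IDR threshold. The deposited signal value is the caller's own and is not scaled between libraries, so replicates were divided by their median over the optimal peaks. Per the file listings, the deposited offset column holds how many bp the summit lies from the start of its region, and was added to the start as given; in 3 peaks it lies past the region's end, and 1 pair of peaks shares coordinates.

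Summits were annotated with Ensembl 115 genes (BDGP6.54, the assembly of dm6) and RefSeq Release 6 sequence, using Python 3.11.15, numpy 2.4.6 and pandas 2.3.3; figures used matplotlib 3.10.9. A summit took the first place that applied, in the order of 5′ UTRs, coding sequence, 3′ UTRs, other exons, introns and intergenic DNA. A replicate region matched a peak by at least 1 bp; a summit was recovered if inside one of a replicate's 3392 strongest regions. Clustered-minus-other differences were tested by an exact two-sided sign-flip permutation over the 3 replicates (smallest p 0.25), adjusted over 17 tests by Benjamini-Hochberg; the code was tested on simulated data. Genes were named by rule. These were hosts or neighbours of the 10 clusters with most members and of the 10 with the highest summed signal. Also named were hosts in the BMP and Dpp lists, and up to 4 hosts of every other list. Named after their values were seen were CG3587, RpL8, dos, Mgat4a, elav, CG3552, CG31668 and Tlk, and the neighbours aop, chinmo, Cdk1 and RpL34b. The members and gene lists were chosen with earlier results of these data known. Alternatives, including other distances, windows and the dm3 list, follow at the end. Depth is unknown; Wilson intervals (95%) and limits for a count of 0 (3 counts) cover counting error only. Nothing beyond the labels says how separate the replicate collections were, so p-values measure the spread between these 3 libraries.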

Additional observations from a re-analysis of the deposited data

How the results depend on the processing

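The number of clustered summits follows the rule's own limits. Against 451 summits in 164 clusters, a distance of 2.5 kb gave 131 in 63 and 10 kb gave 987 in 304. Requiring 3 other summits gave 133 in 48, and the 1696 strongest peaks gave 126 in 47. Keeping only optimal peaks matched by the strongest regions of both remaining replicates, leaving out each replicate in turn, gave 177 to 198 summits in 67 to 74 clusters, from shorter lists of 2210 to 2330 peaks. In each of these settings fewer or more positions could count as neighbours by construction. Summit merging at other distances, region centres and the dm3 list kept both counts within 1.5 times. Recovery of clustered summits, 81.4%, was 98.7% with all regions of a replicate, 53.8% with the 1696 strongest and 78.0% with a summit within 100 bp; longer lists can only raise it and shorter ones only lower it.

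The TSS, intron and TATCGATA differences kept their direction under every alternative run for them (10, 8 and 5). The TSS difference lay between -16.4 (2.5 kb) and -6.12 points (strongest summit of each cluster), with -14.6 to -10.5 on leaving out each replicate. The intron difference lay between 8.03 (10 kb) and 16.1 points (2.5 kb). The GC difference of 0.412 points reversed with 1696 top regions per replicate (-0.2098) and with the strongest summit of each cluster (-0.249); the cause was not tested. Several motif differences changed sign. With 50 bp on either side GAGAG was -0.00168, CACACA -1.72 and GGTCACAC 0.364 points. CACACA and GAGAG stood at 5.66 and 3.98 points with 250 bp on either side, against 0.312 and 0.239 with 100 bp. With 250 bp TGANTCA was 0.196, TGGCG -0.335 and CAGCTG 0.893. Leaving out each replicate in turn gave ranges of -0.115 to 0.683 points for GAGAG, -0.29 to 0.662 points for CACACA, -0.328 to 0.00185 points for CAGGTA, -2.4 to 0.882 points for GNCGNC, -0.0721 to 0.0472 points for GTCTAGAC and -1.01 to 0.0855 for CAGCTG. The causes were not tested. What read depth limits could not be measured, since it is unknown.

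Every difference is taken within a replicate, so the tests are paired by replicate; with 1 group, no further pairing applies.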
